A study of Mus musculus with 14 samples.

Results

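The laminin and integrin genes are the mouse genes for the chains of laminins, the ligands of basement membranes, and of integrins, the receptors that hold cells to them. They were chosen by symbol alone, as every *Lama*, *Lamb*, *Lamc*, *Itga* and *Itgb* gene with a chain number, together with *Itgav*, *Itgad*, *Itgae*, *Itgal*, *Itgam* and *Itgax*. This gave 37 of the 28022 genes counted: 5 laminin alpha, 3 laminin beta, 3 laminin gamma, 18 integrin alpha and 8 integrin beta chains. RNA-seq read counts were available for 14 libraries, 2 from each of 7 conditions. MEF (labelled Fib) were mouse embryonic fibroblasts. 2D-iH (labelled 2D-iHepSC) were iHepSCs, hepatic stem-like cells that had been made from C57BL/6J MEFs with lentiviral *Oct4* and *Hnf4α*, grown as a monolayer. 2D-iHE (labelled 2D-iHepSCiEC) were iHepSCs grown in 2D together with iECs, which are endothelial-like cells obtained by giving *ETV2* to HF1, a human fibroblast line. iHLO (labelled 3D-iHA) were organoids made of spheroids of iHepSCs alone, and iHEA (labelled 3D-iHEA) were assembloids in which iECs had been mixed into the gel around such spheroids. Both 3D cultures were embedded in Matrigel and type I collagen, and all 4 cultures shared a medium of hepatic and endothelial components with oncostatin M. The labels Adult-Liver and Fetal-Liver name whole mouse tissue.

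A laminin is a trimer of an alpha, a beta and a gamma chain, and the alpha chain carries the main binding sites for integrins. An integrin is a dimer of an alpha and a beta chain: *Itga3*, *Itga6* and *Itga7* chains bind laminins, *Itga1*, *Itga2*, *Itga10* and *Itga11* chains bind collagens, and *Itga5* and *Itgav* chains bind fibronectin, vitronectin and other proteins with an RGD motif. In the liver, hepatocytes face a space that is poor in laminin, whereas bile duct cells sit on a basement membrane. Matrigel is an extract of basement membrane rich in laminin, so the 3D cultures received laminin protein that the RNA counts do not measure.

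The libraries held between 20851489 and 35143325 counts. Levels are given as CPM (counts scaled to a common library size) scaled by TMM factors, which correct for the share of counts taken by a few genes. On this scale 3 counts, the floor used for a gene with no reads, stood for 0.0771 to 0.1245 CPM in the MEF, culture and fetal liver libraries and for 0.196 and 0.190 CPM in adult liver. *Alb*, the main plasma protein made by hepatocytes, reached 499788 and 530797 CPM in the adult liver libraries, and their TMM factors were 0.445 and 0.451, against 1.09 to 1.22 in the other 12 libraries. With library totals in place of these factors, the median log2 fold change of all genes moved from -0.10 to -1.51 in adult against fetal liver and from 0.13 to 1.56 in iHLO against adult liver, so changes in both comparisons are relative to the scaling. The second iHEA library carries 2 conflicting numbers in its label, and it therefore entered the iHEA group unnumbered. The 2 iHEA libraries and the 2 fetal liver libraries stood further apart (chi-square per gene 11.5 and 13.4) than those of the other conditions (3.05 to 3.67, where sampling noise gives 1). Nothing in the labels shows that the libraries of a condition came from separate cultures or animals. The p-values therefore measure the spread between these libraries, which may be technical. In 3D against 2D that spread also holds any co-culture difference, since libraries with and without iECs form 1 group on each side. The common coefficient of variation was 7.4% in that fit and 4.76% in the culture fit with a term per condition. In the 8 culture libraries, the 6 hepatocyte markers summed to 284 to 402 CPM, whereas they reached 532225 to 563983 CPM in adult liver. Most of the culture sums was *Apoa1* (202 to 322 CPM), with *Ttr* at 1.29 to 2.80 CPM in 2D and 77.2 to 89.4 CPM in 3D. *Alb* was at 0.0771 to 5.85 CPM in the cultures, and *Serpina1a* had 3 counts or fewer in every culture library. The 6 fibroblast markers summed to 25107 to 26214 CPM in MEF, 3.87 to 4.21 CPM in 2D-iH, 10.5 to 12.5 CPM in 2D-iHE, 3.93 to 10.1 CPM in iHLO and 2.69 to 5.29 CPM in iHEA, with *Col1a2* and *Thy1* at 3 counts or fewer in every culture library and *Col1a1* at 2.59 and 2.92 CPM in 2D-iH and 11.3 and 9.71 CPM in 2D-iHE. The labelled adult and fetal livers expressed all 6 hepatocyte markers. The 2 adult liver libraries had 14646 and 16368 counts of *Xist* and 0 of 4 genes on the Y chromosome. The study's methods give male mice for the adult livers under qRT-PCR, female mice for another experiment and no sex under RNA sequencing. *Ddx3y* from the Y chromosome had 885 and 151 counts in the fetal liver libraries. In the annotation, 12 of the 37 genes share exon bases with another gene, among them *Itga10* (33.5%) and *Itgam* (68.7%), whose counts are uncertain because the counting of shared reads and the use of strand are not given in the sources used here.

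Promoter sequences are shown for 3 chains on which the results turn: *Lama5*, which supplied nearly all laminin alpha transcript in the cultures, and *Lamb3* and *Itgb7*, which were higher in iHEAs than in iHLOs. Each run holds the 250 bases upstream of the start site from RefSeq (GRCm38.p6), 5′ to 3′ on the strand of the gene, which is the minus strand for *Lama5* and *Itgb7* and the plus strand for *Lamb3*. Of the 2 *Lamb3* starts in that table the second is shown, and matches in the first alone are not given here. Capitals mark the GC box (GGGCGG) or the TEAD motif (GGAATG) on either strand, and the AP-1 motif (TGANTCA) was searched as well.
*Lama5* chr2:180225860-180226109: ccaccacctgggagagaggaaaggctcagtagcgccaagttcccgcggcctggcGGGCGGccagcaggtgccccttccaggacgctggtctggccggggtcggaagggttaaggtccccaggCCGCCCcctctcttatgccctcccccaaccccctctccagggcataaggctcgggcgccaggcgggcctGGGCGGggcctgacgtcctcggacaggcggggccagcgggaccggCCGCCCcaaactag
*Lamb3* chr1:193301993-193302242: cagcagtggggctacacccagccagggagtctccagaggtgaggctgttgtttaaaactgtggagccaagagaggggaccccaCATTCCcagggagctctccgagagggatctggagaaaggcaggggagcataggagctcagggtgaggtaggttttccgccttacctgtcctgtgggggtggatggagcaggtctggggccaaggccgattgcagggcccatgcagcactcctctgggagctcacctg
*Itgb7* chr15:102231936-102232185: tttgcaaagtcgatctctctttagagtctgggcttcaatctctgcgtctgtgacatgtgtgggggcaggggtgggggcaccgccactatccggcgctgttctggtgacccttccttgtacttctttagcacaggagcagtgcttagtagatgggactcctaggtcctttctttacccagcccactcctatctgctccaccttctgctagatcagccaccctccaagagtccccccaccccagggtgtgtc
Of the 37 genes, 23 had a promoter in the table. The *Lama5* window held 4 GC boxes at a GC content of 72.4%, the *Lamb3* window held 1 TEAD motif, and none of the 3 motifs was found in the *Itgb7* window. The GC box was present in 32.7% of all 32851 promoters and in 8 of the 23 genes, the TEAD motif in 12.6% and in 3 (*Itga10*, *Itgb1* and *Lamb3*), and the AP-1 motif in 6.7% and in 1 (*Itgax*). A gene counted if any of its starts matched (26 promoters for the 23 genes), whereas the percentages are shares of promoters. These matches describe letters in the windows and were not tied to any change in expression.

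iHepSCs were compared with the MEFs from which such cells are derived to see which chains differ between the starting and the converted cell type. In the study's methods MEFs grew on gelatin in a medium with fetal bovine serum, and 2D-iH in the shared culture medium. Cell type and culture conditions therefore cannot be told apart here. Of the 37 chains, 33 passed the filter on low counts over all 14 libraries (14121 genes), and 12 were higher and 18 lower in 2D-iH, where 45.7% of all genes tested were higher and 38.2% lower. The median log2 fold change was -0.50 over the chains and 0.11 over all genes. A chain that passes the filter through 1 condition only had to differ, so these counts are a description.

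**Figure D1:**
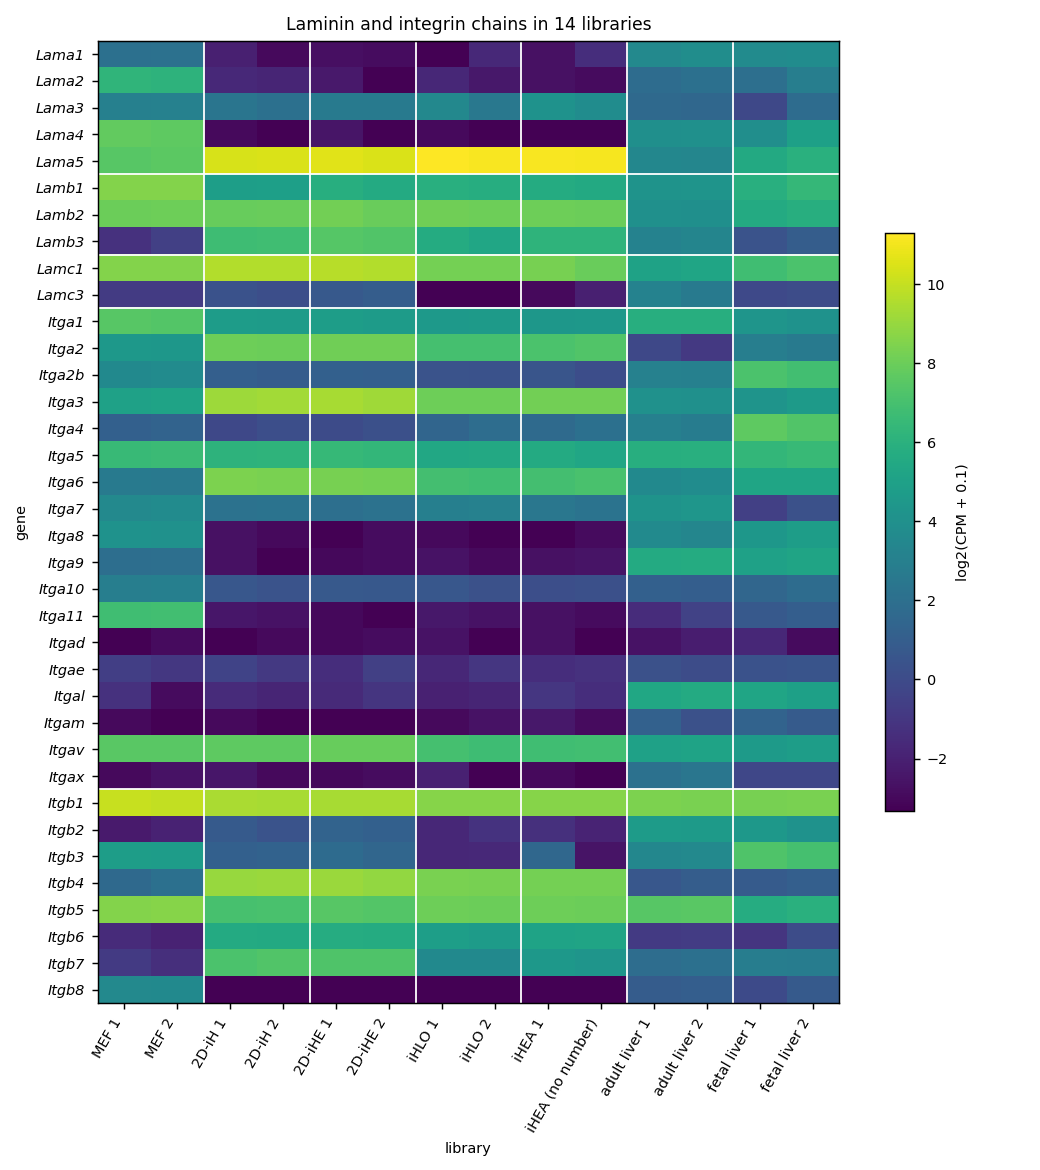
Heat map of log2(CPM + 0.1) for 36 chains (rows, grouped as laminin alpha, beta and gamma and integrin alpha and beta) in the 14 libraries (columns, white lines between conditions). *Lama4*, *Itga8*, *Itga9*, *Itga11* and *Itgb8* are dark in all 8 culture libraries, *Lama5*, *Itga3*, *Itga6*, *Itgb4* and *Itgb6* are bright there, and *Itga2b*, *Itga4* and *Itgb3* are brightest in fetal liver.

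*Lama4*, the alpha chain of mesenchymal and vascular basement membranes, stood at 215 and 205 CPM in the MEF libraries and had 1 count in the 2 2D-iH libraries together against 14419 in MEF, a ratio of 14243 (95% interval 2556 to 562587, counting error only). *Lama2*, the alpha chain of muscle and nerve laminin, went from 76.2 and 70.0 CPM in MEF to 0.223 and 0.189 CPM in 2D-iH. *Lama5*, the alpha chain of most adult epithelial basement membranes, was at 179 and 193 CPM in MEF and at 1334 and 1418 CPM in 2D-iH (log2 fold change 2.82, SE 0.11, adjusted p = 1.98e-12). The ranges of the conditions did not overlap for any of these 3 genes. In MEF, *Lama4* (17.4 CPM per kb of exon ± 0.62 SD, n = 2) and *Lama5* (16.3 ± 0.92) could not be separated in rank, as their libraries overlapped, whereas in 2D-iH *Lama5* made up 99.6% of the summed laminin alpha level per kb.

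Among the partner chains, *Lamb1* fell from 384 and 382 CPM in MEF to 29.3 and 30.7 CPM in 2D-iH (log2 fold change -3.74, SE 0.13). *Lamb3*, a beta chain of epithelial laminin, was at 0.322 and 0.575 CPM in MEF and at 106 and 110 CPM in 2D-iH (log2 fold change 7.87, SE 0.18). *Lama3*, an alpha chain of epithelial laminin, went the other way, from 8.22 and 8.46 CPM to 4.99 and 4.09 CPM (log2 fold change -0.94, SE 0.35, adjusted p = 0.0206). This call was lost without either MEF library, without 2D-iH library 2 and in the DESeq2 Wald test (adjusted p of 0.0585 to 0.12). *Lamb2* was at 254 and 270 CPM in MEF and at 236 and 251 CPM in 2D-iH (log2 fold change -0.18, SE 0.08, adjusted p = 0.0479), and this call was lost in 7 of the alternatives, with adjusted p of 0.0618 to 0.254.

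*Itga11*, a collagen receptor of fibroblasts, had 112 and 116 CPM in MEF and 0.0836 and 0.0629 CPM in 2D-iH. *Itgb8*, which pairs with *Itgav* to bind latent TGF-β, had 438 and 376 counts in the MEF libraries and 0 in the 8 culture libraries, so it was at least 134-fold lower in 2D-iH against a floor of 3 counts per library. *Itga8*, with 1164 counts in MEF and 3 in 2D-iH, and *Itga9*, with 262 and 2, were near the floor as well. The beta chains *Itgb4*, *Itgb6* and *Itgb7* were higher in 2D-iH. *Itgb4*, the hemidesmosome chain, was at 3.09 and 4.09 CPM in MEF and at 522 and 541 CPM in 2D-iH (log2 fold change 7.15, SE 0.11). *Itgb6*, an epithelial partner of *Itgav*, rose by 7.77 (SE 0.20) on the log2 scale to 49.4 and 46.3 CPM. *Itgb7*, known mainly as the partner of *Itga4* and *Itgae* in lymphocytes, rose by 8.55 (SE 0.13) to 142 and 159 CPM. The leukocyte markers *Ptprc* and *Cd52* had 3 counts or fewer in every culture library, and *Itgal*, *Itgam* and *Itgax*, other leukocyte chains, each stayed under 0.4 CPM there. Other leukocyte genes were higher: *Lcp1*, an actin-bundling protein, was at 0.107 and 0.128 CPM in MEF and at 56.4 and 54.8 CPM in 2D-iH, and *Itgb2* had 9 counts in MEF and 100 in 2D-iH, a ratio of 11.2 (95% interval 5.69 to 25.3, counting error only). *Itgav* differed by 0.02 (SE 0.07) on the log2 scale and was not called.

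Per kb of exon, the cultures were dominated by a few chains of each class. *Itga3* was the most abundant integrin alpha chain in all 4 culture conditions (46.6% to 48.8% of the summed alpha level per kb), followed by *Itga2* and *Itga6*, which overlapped in 2D-iH. *Itgb1*, the common partner of the laminin and collagen receptors, led the beta chains (43.1% to 48.2%). Behind it came *Itgb4* in both 2D conditions and *Itgb5* in both 3D conditions, and in all 4 conditions these neighbours did not overlap. *Lamb2* exceeded *Lamb3* and *Lamb1* in every culture, and *Lamc1* supplied 95.1% to 97.5% of the gamma level per kb.

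**Figure D2:**
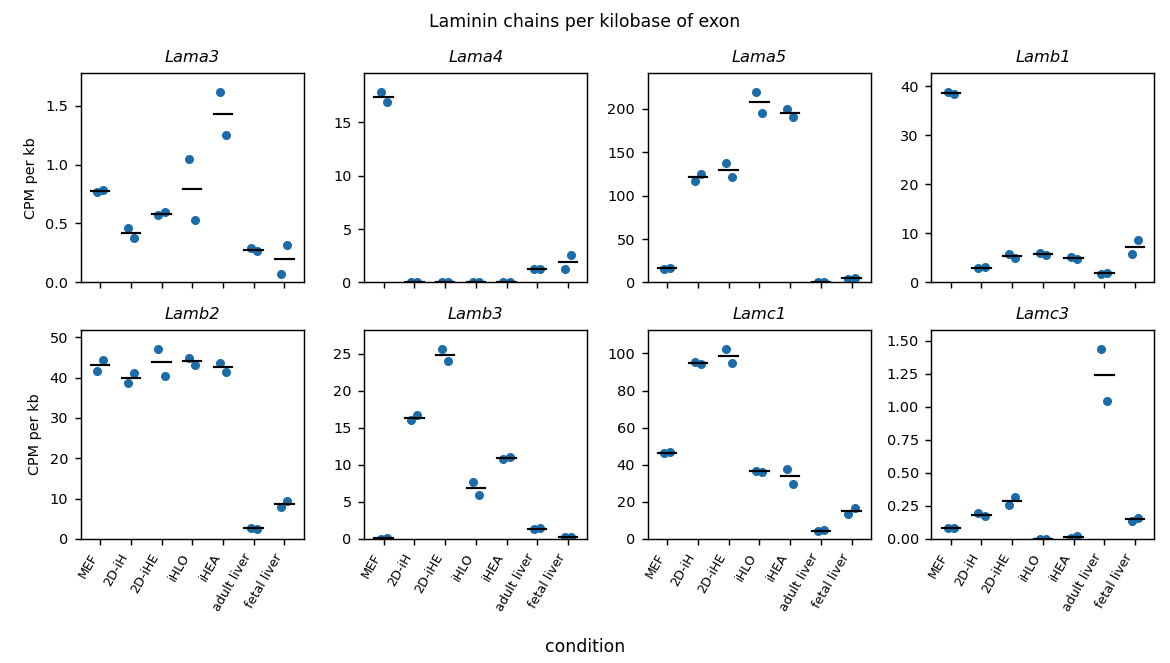
CPM per kb of exon of 8 laminin chains by condition, with a point for each library and a line at the mean of 2 libraries, each panel on its own axis from 0. *Lama5* is highest in the 3D cultures, *Lamc1* and *Lamb3* are highest in the 2D cultures, and *Lama4* and *Lamb1* are highest in MEF.

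The effect of 3D culture was asked in 3 ways that share the same 8 libraries: 3D against 2D with 4 libraries on each side, iHLO against 2D-iH, and iHEA against 2D-iHE. The values are therefore set side by side and do not support each other. Over 13409 genes tested, 27 of the 37 chains passed the filter, and the 10 that did not were *Lama1*, *Lama2*, *Lama4*, *Itga8*, *Itga9*, *Itga11*, *Itgad*, *Itgam*, *Itgax* and *Itgb8*. In 3D against 2D, 5 chains were higher and 16 lower, where 38.7% of all genes were higher and 37.2% lower, and the median log2 fold change was -0.70 over the chains and 0.01 over all genes. In iHLO against 2D-iH, 7 were higher and 16 lower (background 36.9% and 35.3%). In iHEA against 2D-iHE, 4 were higher and 16 lower (36.0% and 34.9%). Since these libraries are bulk cultures, a lower share of cells that express a chain and less RNA per cell cannot be told apart. The 3D cultures were held in a gel with Matrigel on an orbital shaker, and the 2D co-culture on plates coated with type I collagen. Shape, matrix and shaking therefore cannot be told apart either.

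*Lama5* was at 1334, 1418, 1568 and 1379 CPM in 2D and at 2493, 2225, 2271 and 2165 CPM in 3D, so the groups did not overlap (log2 fold change 0.72, SE 0.06, adjusted p = 4.37e-07). *Lamc1*, the common gamma chain, moved in the opposite direction, from 791, 778, 849 and 783 CPM in 2D to 304, 301, 312 and 247 CPM in 3D (log2 fold change -1.42, SE 0.06, adjusted p = 3.21e-09). The ratio of *Lama5* to *Lamc1* per kb was thus 1.23 to 1.34 in monolayer (2D-iH and 2D-iHE), against 5.28 to 6.37 in iHLO and iHEA. *Lamb2* was not called in 3D against 2D, with 236, 251, 287 and 246 CPM in 2D and 273, 263, 266 and 252 CPM in 3D (log2 fold change 0.09, SE 0.06, adjusted p = 0.187). In iHLO against 2D-iH it was called higher by 0.18 (SE 0.06, adjusted p = 0.0156), a call lost without 2D-iH library 1, without iHLO library 1 and in the fit of all 14 libraries (adjusted p = 0.175, 0.0923 and 0.131). Without 2D-iHE library 1 the pooled difference was called (0.14, adjusted p = 0.0145).

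*Lama3* and *Lamb3*, both chains of epithelial laminin, moved in opposite directions. *Lama3* was at 4.99, 4.09, 6.12 and 6.39 CPM in 2D and at 11.3, 5.67, 17.3 and 13.5 CPM in 3D, and rose by 1.19 (SE 0.28, adjusted p = 0.00256), although iHLO library 2 lay within the 2D range. *Lamb3* fell from 106, 110, 170 and 159 CPM to 50.6, 39.6, 71.1 and 73.2 CPM (log2 fold change -1.18, SE 0.21). *Lamc3*, a minor gamma chain, had 42, 33, 61 and 46 counts in the 2D libraries, none in either iHLO library, and 1 and 4 in the iHEA libraries. It was at least 11.9-fold lower in iHLO than in 2D-iH, and the ratio of 2D-iHE to iHEA was 20.8 (95% interval 8.65 to 65.4, counting error only). *Lamb1* was not called in 3D against 2D (log2 fold change 0.38, SE 0.19, adjusted p = 0.0941) but was 0.96 (SE 0.07) higher in iHLO than in 2D-iH and differed by -0.09 (SE 0.07) between iHEA and 2D-iHE. Without 2D-iHE library 1 the pooled difference was 0.58 and was called, as it was with 1 term per condition (0.44, adjusted p = 3.46e-06) and with no filter (0.40, adjusted p = 0.0493).

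**Figure D3:**
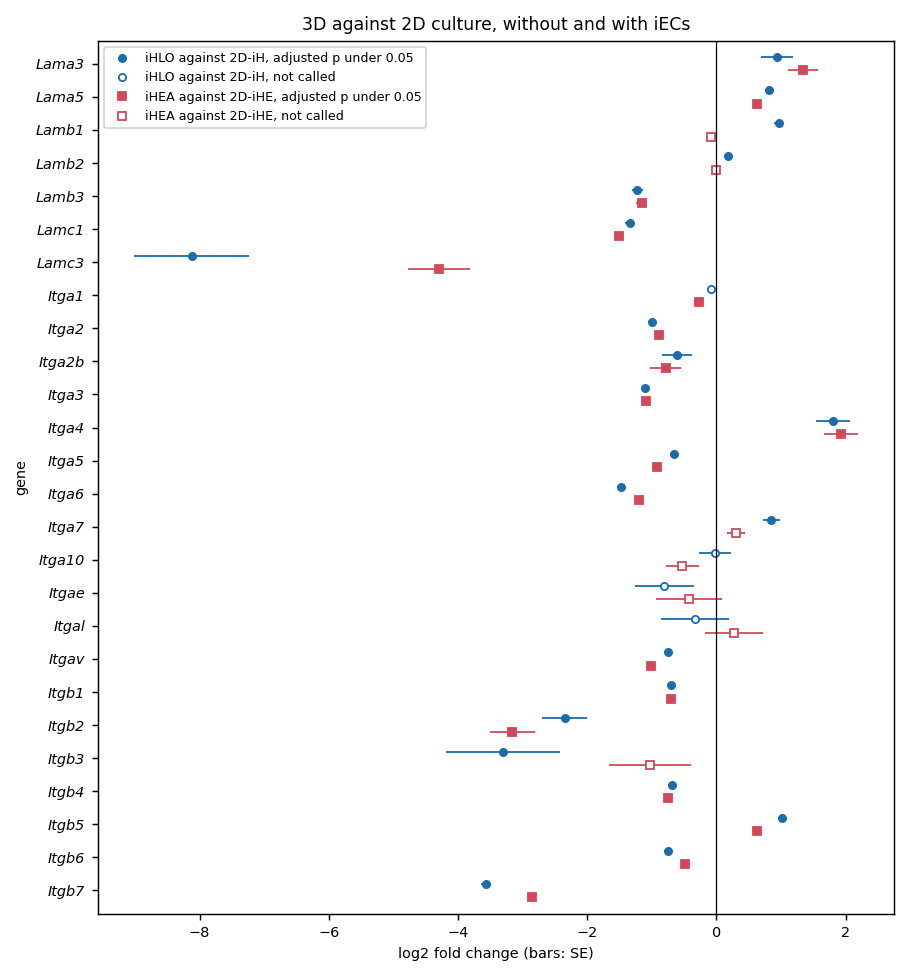
Log2 fold change (x axis, bars: SE) of 26 tested chains in iHLO against 2D-iH (circles) and iHEA against 2D-iHE (squares), filled where the adjusted p was under 0.05. Most integrin chains lie left of 0, *Itga4*, *Itgb5*, *Lama3* and *Lama5* lie right of it in both comparisons, and *Lamb1*, *Lamb2* and *Itga7* were called higher in iHLO against 2D-iH and not in the other comparison.

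Of the laminin receptors, *Itga6* was at 344, 327, 307 and 302 CPM in 2D and at 122, 113, 123 and 136 CPM in 3D (log2 fold change -1.34, SE 0.06). *Itga3* was at 576, 604, 663 and 593 CPM in 2D and at 269, 265, 283 and 292 CPM in 3D (log2 fold change -1.10, SE 0.05). For both genes every 3D library lay below every 2D library. *Itgb4* went from 522, 541, 547 and 474 CPM to 330, 308, 298 and 298 CPM (log2 fold change -0.72, SE 0.05), while *Itgb1* went from 680, 650, 668 and 663 CPM to 401, 395, 400 and 396 CPM. The ratio of *Itgb4* to *Itgb1* per kb accordingly stayed at 0.416 to 0.484 in 2D and 0.433 to 0.479 in 3D, whereas *Itga6* over *Itgb4* moved from 0.436 to 0.512 in 2D to 0.284 to 0.356 in 3D. *Itga7*, a laminin receptor best known from muscle, rose by 0.61 (SE 0.17, adjusted p = 0.00738), from 4.49, 4.68, 3.93 and 4.44 CPM to 7.68, 8.38, 5.36 and 4.64 CPM, with the unnumbered iHEA library inside the 2D range.

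Of the collagen receptor chains, *Itga1* and *Itga2* were called lower in 3D, *Itga10* was not called and *Itga11* was not tested. *Itga2* fell from 266, 253, 279 and 280 CPM in 2D to 124, 128, 139 and 157 CPM in 3D (log2 fold change -0.94, SE 0.08), and *Itga1* fell by 0.17 (SE 0.06, adjusted p = 0.0149), which was no longer called without iHEA library 1 (adjusted p = 0.0539) or with the library number as a block (0.0682). *Itga10*, at 1.06 to 1.59 CPM across the cultures, differed by -0.27 (SE 0.17) on the log2 scale.

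The beta partners of *Itgav* diverged. *Itgav* stood at 200, 200, 234 and 237 CPM in 2D and at 125, 106, 112 and 117 CPM in 3D. *Itgb5*, its vitronectin-binding partner, rose from 129, 135, 182 and 165 CPM to 266, 252, 271 and 252 CPM (log2 fold change 0.80, SE 0.10, adjusted p = 1.47e-05), and no libraries of the 2 groups overlapped. *Itgb6* fell from 49.4, 46.3, 52.4 and 51.5 CPM to 29.4, 26.2, 35.1 and 37.5 CPM (log2 fold change -0.60, SE 0.10). The ratio of *Itgb5* to *Itgav* per kb thus went from 1.95 to 2.35 in 2D to 6.41 to 7.31 in 3D. *Itgb3*, the partner of *Itgav* in osteoclasts, vessels and platelets, was at 2.17, 2.29, 3.34 and 2.78 CPM in 2D, at 0.214 and 0.218 CPM in iHLO and at 0.0708 CPM in the unnumbered iHEA library, but at 2.78 CPM in iHEA library 1. It was not called in 3D against 2D (log2 fold change -1.62, SE 0.71, adjusted p = 0.0579) but was called without iHEA library 1 (-3.88, adjusted p = 1.18e-06), with 1 term per condition (-2.17, adjusted p = 0.00276) and with no filter (-1.60, adjusted p = 0.0338). *Fn1*, fibronectin, was higher in the same library too, at 394 CPM against 152 CPM in the other iHEA library and 219 and 143 CPM in iHLO, and whether the values of these genes there have a shared source was not tested. *Itga5*, the fibronectin receptor chain, was at 70.0, 73.1, 89.1 and 82.9 CPM in 2D and at 43.8, 44.2, 48 and 40.7 CPM in 3D.

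Chains known mainly from blood cells had the largest fold changes among the integrins called. *Itgb7* fell from 142, 159, 156 and 152 CPM in 2D to 12.3, 12.2, 22.2 and 19.3 CPM in 3D (log2 fold change -3.17, SE 0.17, adjusted p = 1.12e-08). *Itgb2*, the beta chain shared by leukocyte integrins, fell from 1.67, 1.26, 2.39 and 2.12 CPM to 0.214, 0.343, 0.303 and 0.177 CPM (log2 fold change -2.78, SE 0.29). *Itga4*, which pairs with *Itgb1* or *Itgb7*, rose from 0.780, 1.04, 0.90 and 1.08 CPM to 2.60, 3.58, 3.27 and 4.04 CPM (log2 fold change 1.88, SE 0.19, adjusted p = 3.04e-06). *Vcam1*, a ligand of *Itga4* integrins on vessels, was 2.35 (SE 0.08) higher in 3D. *Itga2b*, the platelet chain, fell by 0.70 (SE 0.15), and *Itgal* and *Itgae* were not called, *Itgae* with the exception of the fit without 2D-iHE library 1 (-0.87, adjusted p = 0.0237). The 5 leukocyte markers summed to 53.2 to 57.0 CPM in 2D and to 14.8 to 28.6 CPM in 3D, in which *Lcp1* went from 52.6 to 56.4 CPM in 2D to 7.40 to 17.7 CPM in 3D and *Laptm5* from 0.334 to 0.643 CPM to 7.11 to 10.8 CPM, while *Ptprc* and *Cd52* stayed at 3 counts or fewer. The 5 megakaryocyte and platelet markers summed to 0.913 to 1.09 CPM in 2D and 4.86 to 6.60 CPM in 3D, the other way from *Itga2b*. Among them *Pf4* went from 0.154 to 0.415 CPM in 2D to 4.18 to 6.21 CPM in 3D. The part of these markers in the *Itgb7*, *Itgb2* and *Itga2b* changes was not tested.

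**Figure D4:**
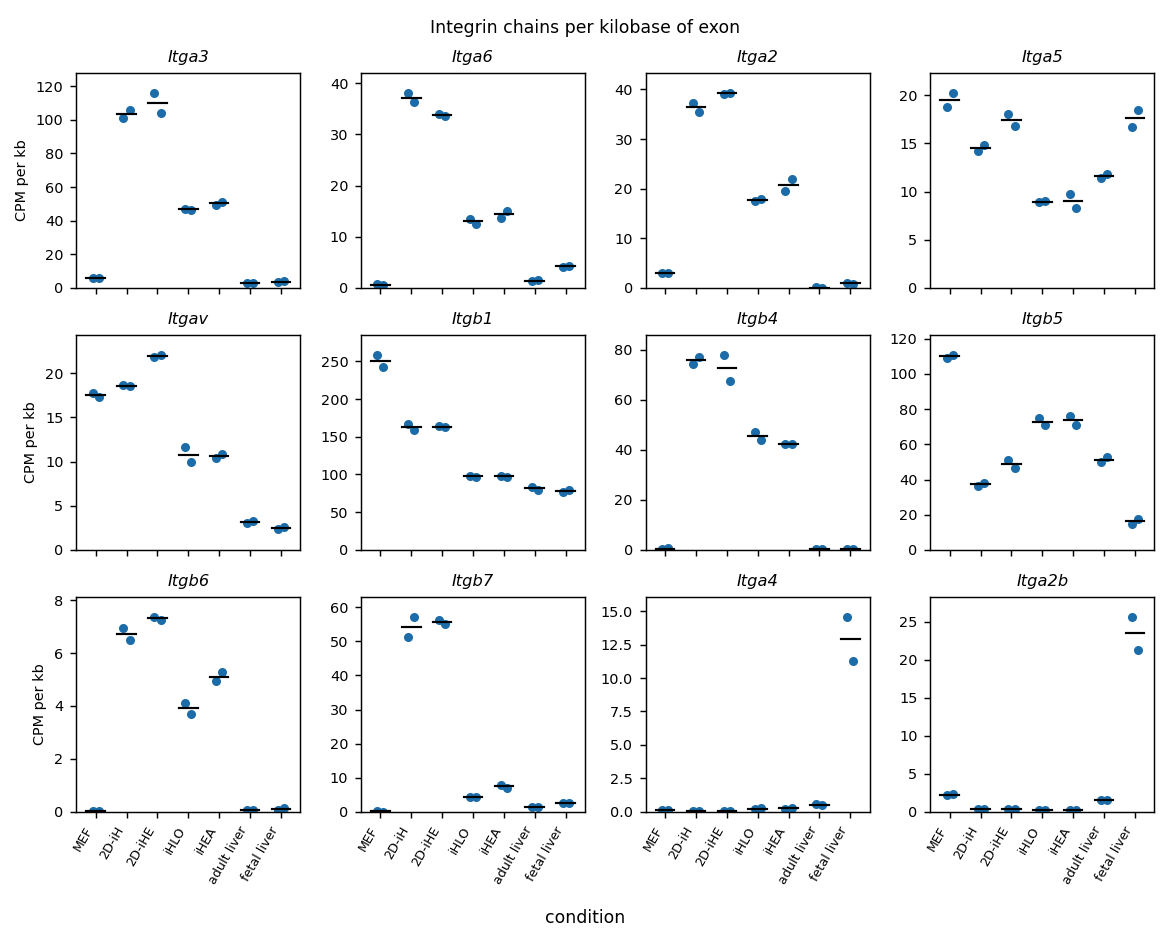
CPM per kb of exon of 12 integrin chains by condition, with a point for each library and a line at the mean of 2 libraries, each panel on its own axis from 0. *Itga3*, *Itga6*, *Itga2*, *Itgb4*, *Itgb6* and *Itgb7* are highest in the 2D cultures, *Itgb1* and *Itgb5* in MEF, and *Itga4* and *Itga2b* in fetal liver.

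Genes around the chains were taken from 5 lists, whose counts stand beside 38.7% higher and 37.2% lower over all genes tested. Of the basement membrane partners, 10 of 14 were tested in 3D against 2D, and 3 were higher and 6 lower (list median -1.21). *Hspg2*, the perlecan core protein, fell by 2.52 (SE 0.09) on the log2 scale and *Col4a1*, a type IV collagen chain, fell by 1.19 (SE 0.05), whereas *Agrn*, agrin, rose by 0.79 (SE 0.10). *Npnt*, nephronectin, which binds *Itga8* integrins, fell by 5.00 (SE 0.15), and it belongs to the other integrin ligands, of which 13 of 22 were tested, with 3 higher and 6 lower. All 5 non-integrin laminin receptors were tested, with 2 higher and 1 lower. *Bcam*, a receptor for the *Lama5* chain, rose by 3.11 (SE 0.21), from 3.11 to 5.14 CPM in 2D to 25.6 to 46.0 CPM in 3D, while *Dag1*, dystroglycan, was not called (0.05, SE 0.06). Of the integrin adaptors and activators, 27 of 29 were tested, with 4 higher and 21 lower. *Tln1*, talin, fell by 0.83 (SE 0.05) and *Vcl*, vinculin, by 1.30 (SE 0.06), while *Fermt1*, the epithelial kindlin, rose by 2.65 (SE 0.14). Of the hemidesmosome and tetraspanin partners, 8 of 9 were tested, with 2 higher and 5 lower: *Dst* fell by 1.12 (SE 0.04), *Plec*, plectin, was not called (-0.09, SE 0.04), and *Col17a1* did not pass the filter. *Ccn1* and *Ccn2* are integrin ligands and known target genes of YAP. *Ccn1* fell by 4.41 (SE 0.07) and *Ccn2* fell by 3.33 (SE 0.12).

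Co-culture with iECs was compared within 2D and within 3D, and the difference between the 2 effects was tested in the same fit. In 2D-iHE against 2D-iH, 5 chains were higher and none lower (background 4.26% and 3.92%). *Lamb1* was at 29.3 and 30.7 CPM in 2D-iH and at 58.0 and 49.3 CPM in 2D-iHE (log2 fold change 0.87, SE 0.07, adjusted p = 2.93e-05). *Lamb3* was at 106 and 110 CPM against 170 and 159 CPM (0.63, SE 0.08, adjusted p = 0.000486). *Itgb5* was at 129 and 135 CPM against 182 and 165 CPM (0.42, SE 0.05, adjusted p = 0.000549). *Itga5* (0.29, SE 0.06, adjusted p = 0.014) and *Itgav* (0.27, SE 0.07, adjusted p = 0.0287) were higher in both 2D-iHE libraries than in both 2D-iH libraries, yet neither was called when any 1 of the 4 libraries was left out, with adjusted p of 0.0621 to 0.159 for *Itga5* and 0.120 to 0.179 for *Itgav*.

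In iHEA against iHLO, 3 chains were higher and 1 lower (background 1.19% and 1.07%). *Itgb7* was at 12.3 and 12.2 CPM in iHLO and at 22.2 and 19.3 CPM in iHEA (log2 fold change 0.78, SE 0.08, adjusted p = 0.000462). *Lamb3* was at 50.6 and 39.6 CPM against 71.1 and 73.2 CPM (0.70, SE 0.09, adjusted p = 0.00114). *Itgb6* was at 29.4 and 26.2 CPM against 35.1 and 37.5 CPM (0.40, SE 0.07, adjusted p = 0.0119), and *Itga7* at 7.68 and 8.38 CPM against 5.36 and 4.64 CPM (-0.66, SE 0.13, adjusted p = 0.0232). For all 4 genes the libraries of the conditions did not overlap. The 5 cholangiocyte markers, some of them general epithelial genes, summed to 1199 to 1277 CPM in iHLO and 1489 to 1495.04 CPM in iHEA, with *Epcam* at 211.1 and 215 CPM against 294 and 335 CPM, and in 2D to 1256 to 1349 CPM in 2D-iH and 1070 to 1214 CPM in 2D-iHE. Their part in the *Lamb3*, *Itgb6* and *Itgb7* differences was not tested. *Itgb6* lost its call without iHLO library 2 (adjusted p = 0.15) and in the fit of all 14 libraries (0.0527), and *Itga7* without either iHLO library (0.0898 and 0.184). *Itga3* (0.13, SE 0.05), *Itga6* (0.16, SE 0.06), *Itgb4* (-0.08, SE 0.06), *Lama5* (-0.07, SE 0.06) and *Lamc1* (-0.10, SE 0.08) were not called, and neither was *Lama3* (0.88, SE 0.22, adjusted p = 0.066). *Itga5*, *Itgav* and *Itgb1* were not called either, at 1.02-fold, 1.00-fold and 1.01-fold their iHLO levels. By qRT-PCR, another measure, the study reported higher *ItgαV* and *Itgβ1* in iHEAs than in iHLOs. Without iHEA library 1, *Itga6* (0.25, adjusted p = 0.0112) and *Lamc1* (-0.26, adjusted p = 0.00412) were called. *Lama3* was called without iHLO library 1 (1.46), without the unnumbered iHEA library (1.03) and with no filter (0.86, adjusted p = 2.21e-12). The unfiltered fit used the same libraries as the one that gave 0.066, with iHLO at 11.3 and 5.67 CPM. Its small p-value therefore rests on how that fit estimated the spread and is no added support for the call.

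**Figure D5:**
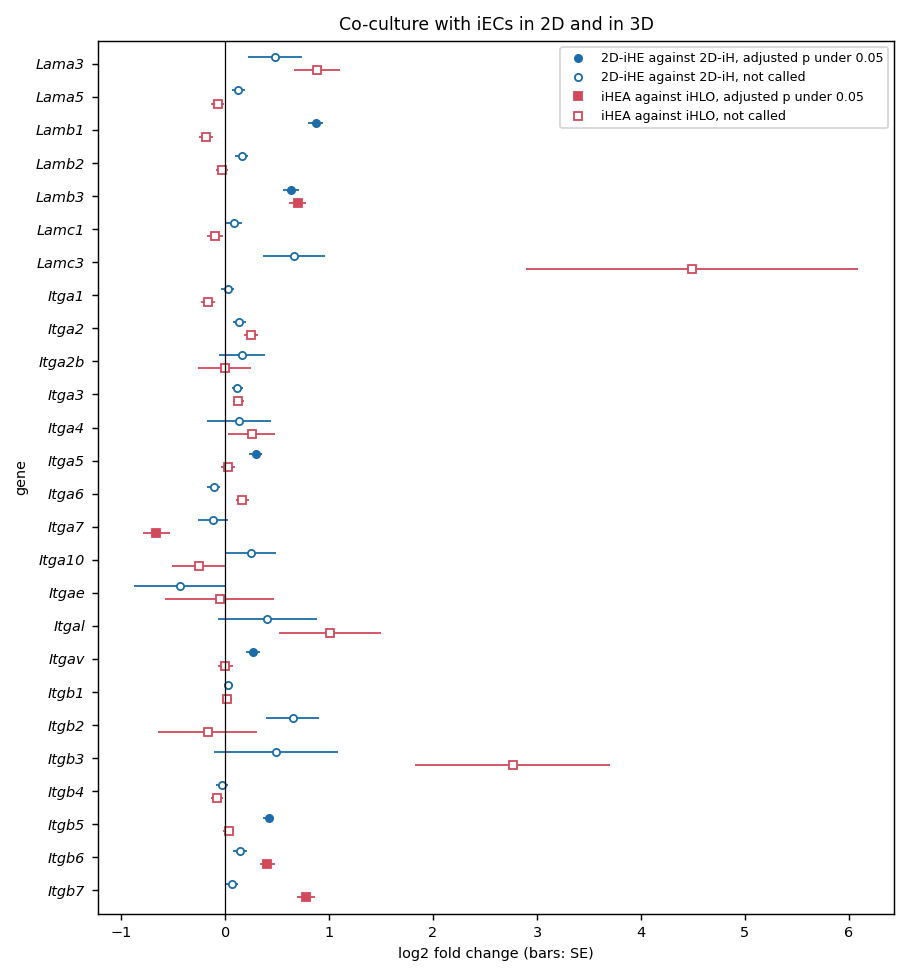
Log2 fold change (x axis, bars: SE) of 26 tested chains in 2D-iHE against 2D-iH (circles) and iHEA against iHLO (squares), filled where the adjusted p was under 0.05. *Lamb3* was called in both comparisons, *Lamb1*, *Itgb5*, *Itga5* and *Itgav* in 2D, and *Itgb6*, *Itgb7* and *Itga7* in 3D, while *Lamc3* and *Itgb3* have wide bars in 3D.

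The co-culture effect itself differed between 3D and 2D for 3 chains, 1 higher and 2 lower (background 1.52% and 1.62%). The effect on *Lamb1* differed by -1.06 (SE 0.10, adjusted p = 0.000204) on the log2 scale, with iHLO at 59.3 and 54.5 CPM and iHEA at 51.5 and 47.3 CPM. For *Itgb7* it was 0.72 higher (SE 0.10, adjusted p = 0.00301) and for *Itgb5* the difference was -0.38 (SE 0.08, adjusted p = 0.0163). The *Itgb5* call was lost without any of 4 single libraries, 2D-iH 1, 2D-iH 2, 2D-iHE 1 or iHLO 1 (adjusted p 0.0514 to 0.124), and in the fit of all 14 libraries (0.0682). The effect on *Lamb3* differed by 0.06 (SE 0.12) and was not called. The mouse genes of 9 endothelial markers summed to 485 to 490 CPM in 2D-iH and 416 to 436 CPM in 2D-iHE, and to 1243 to 1377 CPM in iHLO and 879 to 959 CPM in iHEA. In 2D most of these sums was *Cdh5* (392 to 453 CPM). There *Vwf* was at 15.1 to 28.1 CPM and *Tek* at 1.05 to 2.36 CPM. In 3D *Cdh5* was at 366 to 446 CPM, *Vwf* at 423 to 786 CPM and *Tek* at 79.8 to 122 CPM. *Kdr* was at 0 to 0.697 CPM in the cultures and at 112 and 122 CPM in adult liver. *Pecam1* was at 0.0771 to 0.686 CPM and at 43.8 and 40.2 CPM. *Emcn* had 3 counts or fewer in every culture library. *Lyve1*, another of the markers, was at 3.96 and 4.18 CPM in 2D-iH and at 5.14 and 5.77 CPM in 2D-iHE. Since iECs are human, a read of theirs could enter the table only by alignment to a mouse gene, and their part in the *Lamb1*, *Lamb3*, *Itgb5* and *Itgb7* differences was not tested.

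The livers held another set of chains. In adult against fetal liver, 33 chains were tested, of which 9 were higher and 15 lower (background 40.0% and 43.8%). Among those lower in adult liver were chains known from blood-forming cells. *Itga2b*, the megakaryocyte and platelet chain, was at 8.57 and 8.17 CPM in adult and 140 and 116 CPM in fetal liver (log2 fold change -3.91, SE 0.11), and its partner *Itgb3* was at 10.9 and 11.6 CPM against 151 and 124 CPM (-3.58, SE 0.27). *Itga4* was at 7.98 and 6.91 CPM against 204 and 157 CPM (-4.57, SE 0.15). The megakaryocyte and platelet markers summed to 6.91 to 7.39 CPM in adult and 202 to 253 CPM in fetal liver, with 4 of 5 above 3 counts, and the erythroid markers to 531 to 574 CPM and 27488 to 28636 CPM. The share of these cells in the difference was not tested.

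The leukocyte chains were present in both livers. *Itgal*, the chain of LFA-1, was at 41.4 and 47.8 CPM in adult and 38.5 and 31.7 CPM in fetal liver, and *Itgb2* at 26.0 and 25.2 CPM and at 21.8 and 17.1 CPM. *Itgam* was at 1.14 to 2.41 CPM across the 4 liver libraries, *Itgax* at 4.25 and 5.20 CPM in adult and 0.765 and 0.777 CPM in fetal liver, and *Itgae* at 0.95 to 1.30 CPM. *Itgb7* was at 3.60 and 4.05 CPM in adult and 7.21 and 7.03 CPM in fetal liver, below its 12.2 CPM in the lowest culture library. *Itgal* (0.37, SE 0.14) and *Itgb2* (0.42, SE 0.13) were called higher in adult liver, but both reversed to -1.05 and -1.0 with library totals. The *Itgal* call was lost without adult liver library 2 or fetal liver library 2 (adjusted p = 0.101 and 0.119), and the *Itgb2* call without fetal liver library 2 (adjusted p = 0.0898). The 5 macrophage and Kupffer cell markers summed to 1198 to 1248 CPM in adult and 210.6 to 264 CPM in fetal liver. *Itga7* was at 18.1 and 20.3 CPM in adult and 0.589 and 1.13 CPM in fetal liver (4.52, SE 0.20).

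Laminin transcripts were scarce in the livers relative to the cultures. The summed laminin alpha level was 4.04 CPM per kb ± 0.21 (SD, n = 2) in adult liver and 8.58 ± 2.31 in fetal liver, against 121 ± 5.11 in 2D-iH and 208 ± 17.0 in iHLO. In adult liver *Lama1* and *Lama4* overlapped at the top of the alpha chains, ahead of *Lama5*, whereas *Lama5* led in fetal liver with 55.1% of the sum. *Lama5*, *Lamb1*, *Lamb2* and *Lamc1* were each lower in adult than in fetal liver (log2 fold changes -2.32, -1.96, -1.69 and -1.78), and *Lamb3* and *Lamc3* were higher (2.63 and 3.10).

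iHLO was set against adult liver as the tissue the organoids are modelled on, and it shares its 2 libraries with the 3D comparisons above. Of 33 chains, 15 were higher and 17 lower in iHLO (background 45.7% and 39.2%), and 1, *Itgb1*, was not called (0.13, SE 0.06). *Lama5* was 7.67 (SE 0.15) higher, *Itgb4* 7.44 (SE 0.13), *Itga2* 7.55 (SE 0.16) and *Itgb6* 5.70 (SE 0.23). On the other side, *Itga9*, a receptor for tenascin and other ligands, had 755 and 797 counts in adult liver and 3 in both iHLO libraries together, a ratio of 1079 (95% interval 368 to 5237, counting error only). *Itgb8* was at least 20.1-fold and *Lamc3* at least 81.5-fold lower in iHLO. *Itga5* (-0.52, SE 0.08), *Itga1* (-1.34), *Itga4* (-1.40), *Itga7* (-1.39) and *Itga10* (-0.82) were lower in iHLO, but with library totals they turned to 0.92, 0.094, 0.034, 0.045 and 0.61. The leukocyte and stellate cell markers, which summed to 327 to 335 CPM and 191 to 196 CPM in adult liver, were at 23.7 to 28.6 CPM and 0.183 to 0.218 CPM in iHLO, and their part in these differences was not tested.

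Read as pairs of ligand and receptor, the chains were described by the level per kb of the scarcer or scarcest chain, which bounds how many complexes the transcripts could supply if each transcript gave the same amount of chain. In MEF the highest values among the laminins belonged to laminin-411 and laminin-421, where *Lama4* was the scarcest chain (17.4 CPM per kb ± 0.62), and to laminin-511 and laminin-521, where *Lama5* was (16.3 ± 0.92). In 2D-iH, laminin-521 was limited by *Lamb2* at 40.0 CPM per kb ± 1.73, and in iHLO by *Lamc1* at 36.6 ± 0.30. Laminin-511 was limited by *Lamb1* in every culture, at 3.03 ± 0.10 in 2D-iH, 5.41 ± 0.62 in 2D-iHE, 5.74 ± 0.34 in iHLO and 4.98 ± 0.30 in iHEA. Laminin-411 was limited by *Lama4*, at or near 0 in all 4 cultures.

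On the receptor side, *Itga3* with *Itgb1* had the highest level of the scarcer chain among the laminin receptors in each culture condition, at 103 CPM per kb in 2D-iH, 110 in 2D-iHE, 46.7 in iHLO and 50.4 in iHEA. *Itga6* with *Itgb4*, the hemidesmosome receptor, stood at 37.2 and 33.8 in 2D-iH and 2D-iHE and at 13.0 and 14.4 in iHLO and iHEA, each set by *Itga6*. In adult liver the same pair stood at 0.238 and was set by *Itgb4*. The ratio of the ligand *Lama5* to the receptor chain *Itga6* per kb was 3.07 to 4.04 in 2D and 12.6 to 16.2 in 3D, without overlap. Against *Itgb4* it was 1.57 to 1.79 and 4.45 to 4.70. Among the RGD receptors, *Itgav* with *Itgb5* was set by *Itgav* in every condition, at 18.6 in 2D-iH and 10.8 in iHLO, and *Itgav* with *Itgb6* by *Itgb6*, at 6.73 and 3.90. *Itga2b* with *Itgb3* reached 23.3 CPM per kb in fetal liver and stayed under 0.4 in the cultures. These levels are of RNA, and the amounts of protein or of assembled receptor were not measured here.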

How the data were processed

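RNA-seq of 14 libraries was analyzed, with groups taken from their labels. According to the authors, reads were trimmed with Trimmomatic 0.36, aligned with HISAT2 to mm10, annotated with Cufflinks and counted per gene with HTSeq. The deposited values are raw counts: neither the equalization nor the log transform that the methods mention had been applied to them. The annotation release is not given in the sources used here.

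edgeR 4.0.16 in R 4.3.3 was used with TMM scaling, a filter of mean log2(count + 1) of at least 3, quasi-likelihood tests and Benjamini-Hochberg adjustment over all genes tested, with calls at an adjusted p under 0.05. 3D against 2D was a fit of 4 against 4 libraries, the other culture comparisons came from 1 fit of 8 libraries with a term per condition, and those with MEF or tissue from 1 fit of all 14. SE is that of the log2 fold change. Levels between genes were compared per kb of GENCODE exon length (GRCm38, release M21), in which each of the 37 genes had a position. Where a group had 10 counts or fewer, ratios with exact 95% intervals are given, and where it had none, bounds against a floor of 3 counts per library, which cover counting error only. Depth limited precision most for genes near this floor. The fits were tested on simulated data.

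All 37 chains entered the fits and counts, and 1 of them is not reported here by name. Values by library are given for epithelial laminin and integrin chains, RGD-binding chains, chains called with co-culture, the 5 largest changes in each direction with 3D culture and conversion, and leukocyte and platelet chains. The members and lists were chosen with earlier results of these data known. *Ctgf* and *Cyr61* were matched as *Ccn2* and *Ccn1*. Alternatives were other scalings, filters, fits and tests (DESeq2 1.42.0), the replicate block and each library left out.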

Additional observations from a re-analysis of the deposited data

Results flagged for a closer look

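The *Itga10* level in iHLO library 1 was 1.44 CPM, apart from 1.06 to 1.12 CPM in the other 3D libraries. The *Itgb3* level in iHEA library 1 was 2.78 CPM, apart from 0.0708 to 0.218 CPM in the other 3D libraries. Both passed Dixon's test for an outlying value among 4 libraries, which was run on 54 groups of 4 libraries and passes about 1 in 20 by chance.

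The effect of co-culture with iECs differed between 3D and 2D by -1.06 on the log2 scale for *Lamb1*, by 0.72 for *Itgb7* and by -0.38 for *Itgb5*, each by the interaction term of the fit.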

How the results depend on the processing

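Of 2092 recomputed log2 fold changes of the chains reported, 1981 kept their direction and their side of the threshold, 60 were no longer called, 22 became called and 29 changed sign. With library totals, the chains called in adult against fetal liver went to 5 higher and 27 lower, and *Itga9* (-0.88), *Itgal* (-1.05), *Itgav* (-1.01) and *Itgb2* (-1.0) changed sign with the shift of all genes. In iHLO against adult liver they went to 10 lower, and *Itga1* (0.094), *Itga10* (0.61), *Itga4* (0.034), *Itga5* (0.92) and *Itga7* (0.045) changed sign. The stricter filter left 8 called lower there because fewer genes were tested. Without a filter, 7 chains were called higher in iHEA against iHLO and 4 in the co-culture difference, and in the fit of all 14 libraries 1 was lower in that difference; for these the cause was not tested.

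*Itgb1* in iHLO against adult liver stood at -0.018 with DESeq2 size factors, -0.018 in the DESeq2 Wald test and -0.0071 with the stricter filter. *Itgav* in 2D-iH against MEF stood at -0.071, -0.071 and -0.15 under the same 3 settings and at -0.046 in the 4 libraries alone. *Itgal* in 3D against 2D stood at -0.029 with 1 term per condition and at -0.028 with the replicate block. Each of these was near 0 and not called in the report, but *Itgb1* was called at 1.56 with library totals, 0.26 with no filter and 0.15 with the replicate block.

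When each library was left out in turn, iHEA against iHLO gave 2 to 6 chains higher (6 without the unnumbered iHEA library, 5 without iHEA library 1) and 0 to 2 lower. 2D-iHE against 2D-iH gave 3 higher each time, and the co-culture difference 1 to 3 higher and 1 to 4 lower. Values that were not called in the report and crossed 0 were those of *Itgal* (-0.26 to 0.23, with -0.017 without the unnumbered iHEA library) in 3D against 2D, *Lamb1* (-0.18 to 0.0052) in iHEA against 2D-iHE, *Lama5* (-0.15 to 0.011) and *Lamc1* (-0.26 to 0.047, called at the lower end) in iHEA against iHLO, *Lamb3* (-0.10 to 0.25) in the co-culture difference and *Itgav* (-0.011 to 0.035) in 2D-iH against MEF. *Itgb3* depended on iHEA library 1: in iHEA against iHLO it was -1.52 without that library, up to 2.79 without another numbered library and 3.67 without the unnumbered one, and in the co-culture difference it was -2.02, up to 2.40 and 3.17.

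The libraries were also fitted with their number as a replicate block. The numbers did not pair the libraries: the correlations of the differences between libraries 1 and 2 were -0.07 to 0.05 over pairs of conditions. With the block, the chains called higher in 2D-iHE against 2D-iH went from 5 to 8, but the same numbered libraries without the block, an alternative chosen after seeing the data, gave 7. In 3D against 2D the block was fitted to the 7 numbered culture libraries and gave 5 chains higher and 15 lower, with *Itga1* no longer called. No paired analysis was possible for iHEA against another condition because the second iHEA library has no number. Depth limits the chains near 3 counts per library, such as *Itgad*, *Lama4*, *Itgb8* and *Itga9* in the cultures.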
